A study of Mus musculus with 18 samples.

Results

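The 35 genes described here are known transcriptional targets of p53 that lie outside the CDK inhibitor, BCL2 and death receptor families. They were chosen by gene symbol, and 35 of 35 were found among the 18838 genes listed in at least 1 of 3 tables. RNA from the mouse duodenal epithelium was measured by bulk RNA sequencing in 18 libraries. Each of 3 wild-type mice (WT, Mtgr1+/+) and 3 mice lacking the transcriptional co-repressor MTGR1 (Mtgr1-/-, null) gave 1 library of freshly isolated crypts (day 0), 1 of enteroids after 24 h in culture (day 1) and 1 of enteroids after 72 h (day 3). The mice were littermates of both sexes aged 8 to 12 weeks. The null allele was present in every tissue, so that it was lost in the crypt before culture as well as in the enteroid, and the enteroids were grown from a portion of the same mouse's crypts. Enteroids are 3-dimensional cultures that grow from intestinal crypts in a gelled matrix. The study sequenced this RNA to ask which genes depend on MTGR1 as the mutant cultures lose viability.

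p53 is a transcription factor that is held low in resting cells by the ubiquitin ligase MDM2 and accumulates after DNA damage, ribosomal stress or loss of growth signals. It binds a sequence made of a pair of short, nearly palindromic half-sites and raises genes that stop the cell cycle, repair DNA, buffer oxidants, start cell death or feed back on p53 itself. In the intestine it is best known for the response of crypt cells to radiation. The level of p53 protein is mostly set by its stability, so the RNA of its targets is often read in place of the RNA of p53.

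The half-site was sought in the RefSeq promoter windows of the members (GRCm38.p6, 250 bases before and 50 after an annotated start), of which 45 windows of 29 members were at hand. Ddb2, Perp, Rrm2b, Trp53inp1, Xpc and Zmat3 were not matched. The consensus half-site of 10 bases, which reads alike on both strands, lay in the windows of 9 of the 29 members (31.0%) and of 9.55% of all 27025 genes. By window, the counts were 10 of 45 (22.2%) and 8.36% of all 32851. The 9 were Mdm2, Ccng1, Sesn1, Gadd45a, Abhd4, Aen, Ppm1d, Ei24 and Polk. A match to these letters is a description of the window and not evidence of binding. A pair of perfect half-sites with at most 13 bases between them was in 0 of the 45 windows and in 0.0731% of all windows. With 1 mismatch allowed in the pair, 2 of the 45 windows (Ccng1 and Polk) and 1.09% of all windows held one. The sequences of 7 members whose levels are described below are shown because the levels of these 7 genes did not all move the same way. The half-site, or for Ccng1 the pair, is in capitals.
Mdm2: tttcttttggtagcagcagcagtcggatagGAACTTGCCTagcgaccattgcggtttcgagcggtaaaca
Ccng1: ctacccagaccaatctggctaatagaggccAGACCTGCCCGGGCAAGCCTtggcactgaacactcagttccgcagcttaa
Sesn1: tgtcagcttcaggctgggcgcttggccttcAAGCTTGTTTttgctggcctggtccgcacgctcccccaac
Gadd45a: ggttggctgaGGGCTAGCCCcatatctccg
Abhd4: cgacccggcaGGGCTTGTTTactatggctg
Ppm1d: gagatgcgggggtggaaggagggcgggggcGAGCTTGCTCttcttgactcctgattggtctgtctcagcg
Aen: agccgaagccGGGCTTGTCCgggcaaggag
These stretches lie at chr10:117710905-117710974 (minus strand) for Mdm2, chr11:40755432-40755511 (minus) for Ccng1, chr10:41887236-41887305 (plus) for Sesn1, chr6:67037428-67037457 (minus) for Gadd45a, chr14:54259274-54259303 (plus) for Abhd4, chr11:85311092-85311161 (plus) for Ppm1d and chr7:78895927-78895956 (plus) for Aen. The first capital was 186 bases before the start in Mdm2, 195 in Ccng1, 173 in Sesn1, 132 in Ppm1d and 40 in Gadd45a. In Abhd4 it was just past the start. In Aen it was 121 bases before one annotated start and just past another.

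In the 16 libraries whose reads could be recovered, 22035316 to 28621990 reads lay on genes. The targeted gene, Mtgr1, is listed as Cbfa2t2, and its RNA was not lower in the libraries labelled Mtgr1-/- at any time point. Its values in the crypts were 614, 523 and 595 normalised counts in WT and 697, 466 and 534 in the libraries labelled Mtgr1-/-, and its log2 fold change was -0.05 in crypts, 0.37 on day 1 (adjusted p = 0.0557, and called higher under 5 of 19 alternatives, among them 0.0399 with the mouse number as a replicate block, with a lowest adjusted p of 0.00287) and 0.06 on day 3, where 6 alternatives changed its sign. A gene-level value sums all exons, and the position of the disrupted exons was not given in the sources used here, so this value does not check the labels. The name Mtgr1-/- below stands for libraries so labelled, and every direction rests on those labels. Xist was at 9047 to 14831 normalised counts in the libraries of WT mouse 3 and Mtgr1-/- mouse 1, and at 19.6 or less in all others, so each genotype had 1 female and 2 male mice by this measure. The WT crypt library of mouse 3 stood apart. Its summed level of 12 non-epithelial markers was 6353 against 291 to 870 in the other 5 crypt libraries, led by the leukocyte gene Ptprc (3795) and the T cell gene Cd3e. In culture, the library of Mtgr1-/- mouse 3 had the highest sum of these markers on day 1 (609 against 38.5 to 276) and on day 3 (851 against 22.8 to 59.0), led by the myeloid gene Lyz2. On day 1, 4 of these 12 markers were at 0 in all libraries or not listed, and on day 3, 3 were.

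Genotypes were compared within each time point. A normalised count is the authors' gene count divided by 1 factor per library. Log2 fold changes are Mtgr1-/- minus WT on log2(normalised count + 1), a scale that understates changes of low genes, and are given with their standard errors. Adjusted p-values are from limma, with Benjamini-Hochberg adjustment over all genes tested at that time point, and a gene was called at an adjusted p below 0.05. A gene that rose or was higher had a level in Mtgr1-/- above WT at the same time point. One that fell or was lower had a level below WT. These words do not describe a change over time. With 3 libraries against 3, an exact permutation test of a single gene cannot go below a p of 0.1.

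In freshly isolated crypts, 0 of the 31 members tested were called higher and 0 lower, against 1.58% and 3.15% of all genes (either direction, 4.73%). On day 1, 14 of 32 members rose (background 30.0%) and 5 fell (background 28.9%, or 58.9% in either direction). On day 3, 18 of 32 rose (background 29.9%) and 5 fell (background 29.1%, or 59.0% in either direction). The median log2 fold change of the members was 0.05 in crypts, 0.31 on day 1 and 0.52 on day 3, beside 0.01, -0.01 and 0.00 over all genes tested. On both culture days 14 members were higher, including the feedback regulators Mdm2, Ccng1, Zmat3 and Trp53inp1, and 4 were lower (Trp53i11, Ddb2, Aen and Ppm1d). The share of all genes called alike on both days was not computed, so these 2 counts have no background. Plk2 was lower in Mtgr1-/- than in WT on day 1 and higher on day 3. In all, the libraries of the 2 genotypes did not overlap for 19 members on day 1 (68.1% of all genes) and 26 on day 3 (68.8%).

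The normalisation sets part of these counts. When each library was scaled to its own total, an alternative chosen after the data were seen, the median of all genes was -0.33 on day 1 and -0.20 on day 3, and the higher genes made up 28.3% of all calls on day 1 (50.9% otherwise) and 35.2% on day 3 (50.7% otherwise). The median of the members was then 0.00 on day 1 and 0.32 on day 3. Of 32 members tested, 9 rose and 7 fell on day 1, and 15 rose and 5 fell on day 3. Over all genes, 7794 of 12587 were then called on day 1, 2206 of them higher. On day 3 it was 7836 of 12782, 2755 of them higher. Mdm2, Ccng1, Gadd45a, Sesn2 and Zmat3 were no longer called on day 1, and the difference of Zmat3 changed sign (-0.04). The totals of the normalised counts differed in the same way, from 22946791 to 24911854 in WT and from 27141338 to 31152183 in Mtgr1-/- day 1 libraries.

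**Figure D1:**
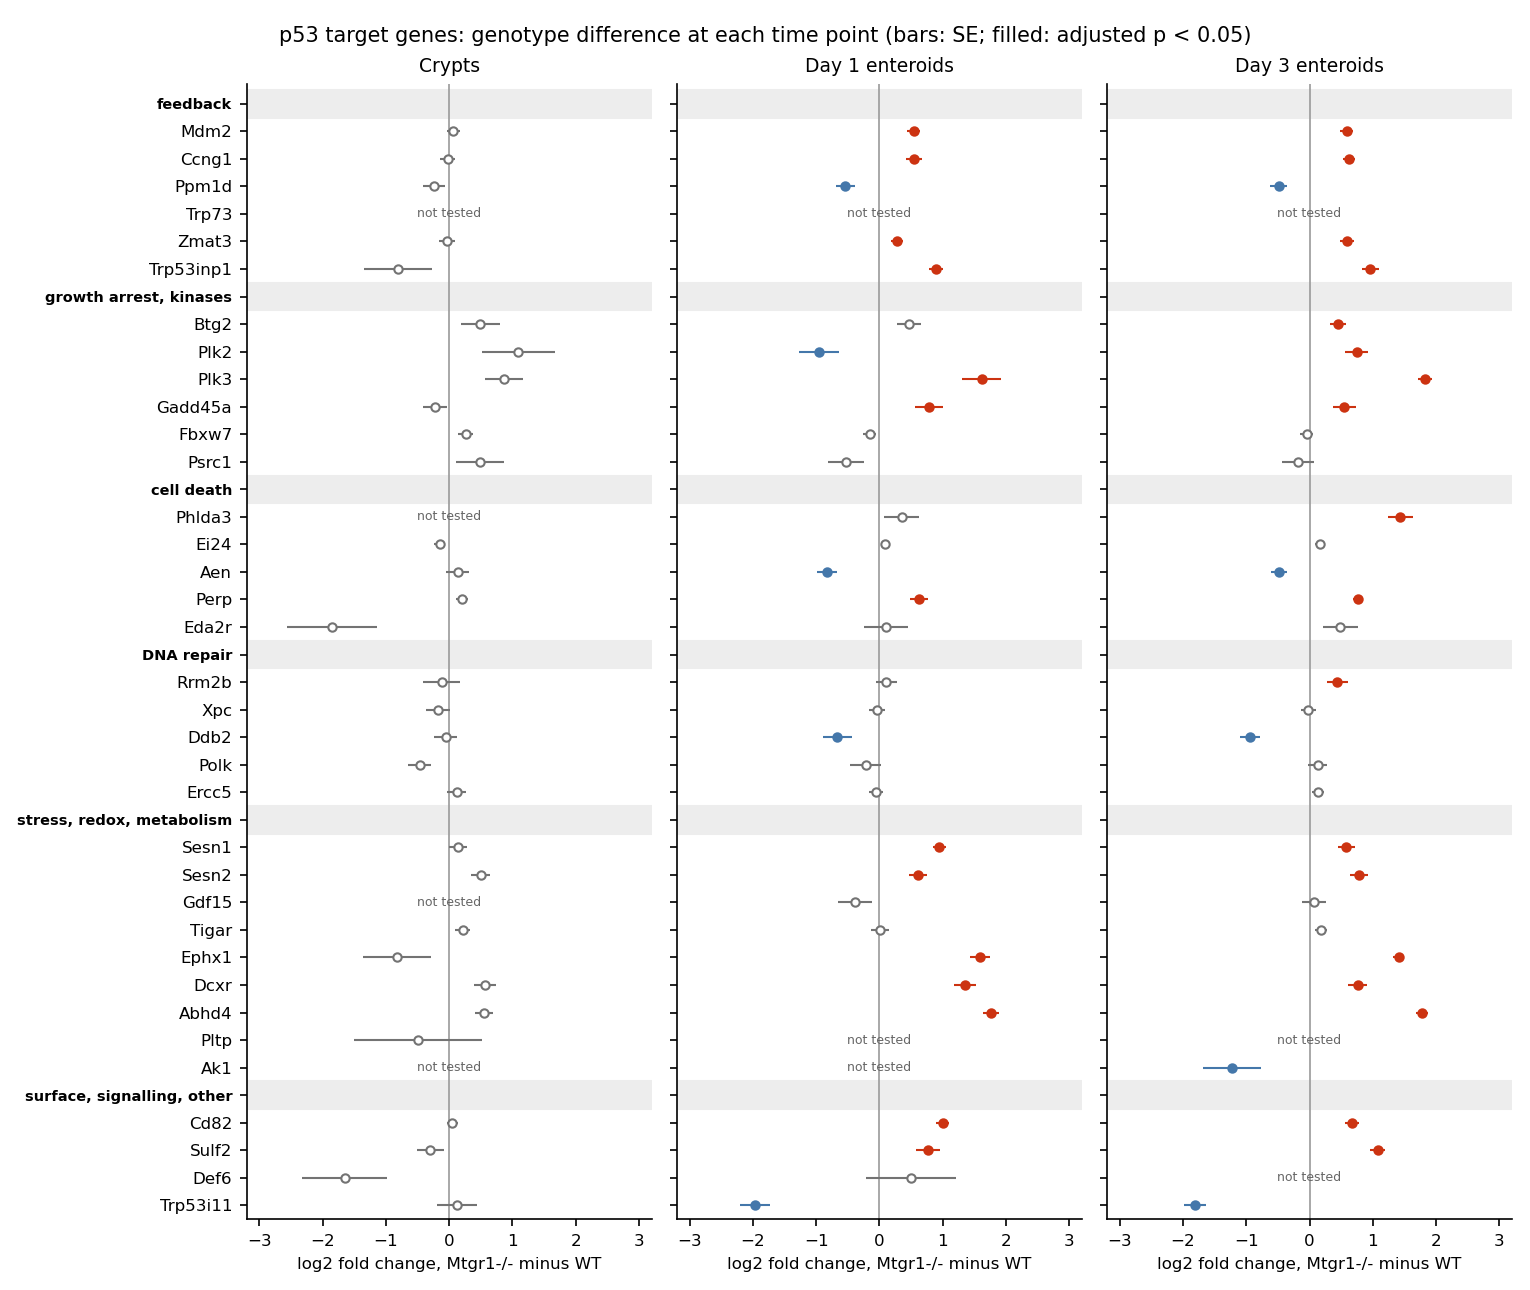
Log2 fold change (Mtgr1-/- minus WT, x axis) of the 35 members, grouped by role on the y axis, in crypts and in day 1 and day 3 enteroids. Points are limma estimates, bars are 1 SE, filled red or blue points were called higher or lower, and open points were not called. The crypt panel has no filled point, while 14 members on day 1 and 18 on day 3 are filled to the right of 0.

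The cell types of the cultures also differed between the genotypes, and those values stand beside all results on day 1 and day 3. Of 15 enterocyte markers, 14 rose and 1 fell on day 1, and 14 rose on day 3, with a median log2 fold change of 1.70 on both days. Of 10 proliferation markers, 9 fell on day 1 and 10 on day 3. All 8 stem cell markers on day 1 and 7 on day 3 fell, as did every goblet, Paneth and enteroendocrine marker tested on both days. These lists were also written with earlier results of these data known. In crypts the goblet (7 of 7) and enteroendocrine (8 of 8) markers were already lower (background 3.15%). There 0 proliferation markers were called, with a median log2 fold change of -0.14. The 7 Paneth markers were lower without overlap (background 25.5%, median -4.48), but 0 were called. Of 8 stem cell markers 1 was called lower, and of 15 enterocyte markers 0 were called higher and 1 lower. All 6 tuft markers tested had positive differences (median 1.85), with 0 called. In bulk RNA, fewer cells of a type and less RNA per cell cannot be told apart, and the part of cell makeup in the differences of the members was not tested.

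Among the genes that feed back on p53 or work with it, 4 of the 5 tested rose and 1 fell on each culture day, beside 30.0% higher and 28.9% lower over all genes on day 1 and 29.9% and 29.1% on day 3. Mdm2 (chr10:117688875-117710758, GRCm38), the ligase that degrades p53 and is itself a p53 target, was at 1264, 1149 and 1302 normalised counts in WT and 2019, 1738 and 1676 in Mtgr1-/- day 1 enteroids. On day 3 it was at 1093, 1030 and 1134 in WT and 1545, 1851 and 1515 in Mtgr1-/-. The genotypes did not overlap on either day, and the log2 fold changes were 0.55 ± 0.10 (SE, adjusted p = 0.00275) and 0.59 ± 0.10 (adjusted p = 0.00154). In crypts Mdm2 lay at 1081, 1062 and 1082 in WT and 1152, 999.7 and 1244 in Mtgr1-/- (log2 fold change 0.07 ± 0.10, adjusted p = 0.783).

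Ccng1 (chr11:40748552-40755311), a cyclin-like partner of protein phosphatase 2A that acts on MDM2, had 3088, 2934 and 3945 normalised counts in WT and 4524, 5071 and 4832 in Mtgr1-/- on day 1. On day 3 the values were 2859, 2671 and 3124 in WT and 4268, 4891 and 4209 in Mtgr1-/-. All Mtgr1-/- libraries were above all WT libraries on both days (0.54 ± 0.12, adjusted p = 0.00635, and 0.63 ± 0.09, adjusted p = 0.000862). In crypts the groups overlapped, with 2068, 2166 and 2382 against 2533, 2069 and 1941. With quantile normalisation the day 1 difference of Ccng1 fell to 0.28 (adjusted p = 0.115).

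Trp53inp1 (chr4:11156431-11174379), a nuclear protein of the p53 stress response, was at 416, 398 and 417 normalised counts in WT and 693, 744 and 860 in Mtgr1-/- on day 1, and at 594, 460 and 439 against 942, 1061 and 883 on day 3. Both differences passed the test (0.89 ± 0.11, adjusted p = 0.000571, and 0.96 ± 0.13, adjusted p = 0.000680). Zmat3, a zinc finger RNA-binding protein, rose by 0.28 ± 0.09 on day 1 (adjusted p = 0.0347) and 0.59 ± 0.11 on day 3 (adjusted p = 0.00274). The day 1 call of Zmat3 was lost when a term for Xist was added to the fit. Ppm1d (chr11:85311244-85347066) moved the other way. This phosphatase, which switches off p53 and the DNA damage kinases, was at 467, 442 and 382 in WT and 334, 310 and 249 in Mtgr1-/- on day 1, and at 466, 475 and 516 against 410, 295 and 340 on day 3. Its log2 fold changes were -0.54 ± 0.15 (adjusted p = 0.0158) and -0.49 ± 0.14 (adjusted p = 0.0148). Leaving out WT mouse 1 or 2 on day 1 or WT mouse 3 on day 3 lost the call of Ppm1d, with a highest adjusted p of 0.0626. Trp73, which encodes the p53 relative p73, was at or below 4.84 normalised counts in every library and was not tested.

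**Figure D2:**
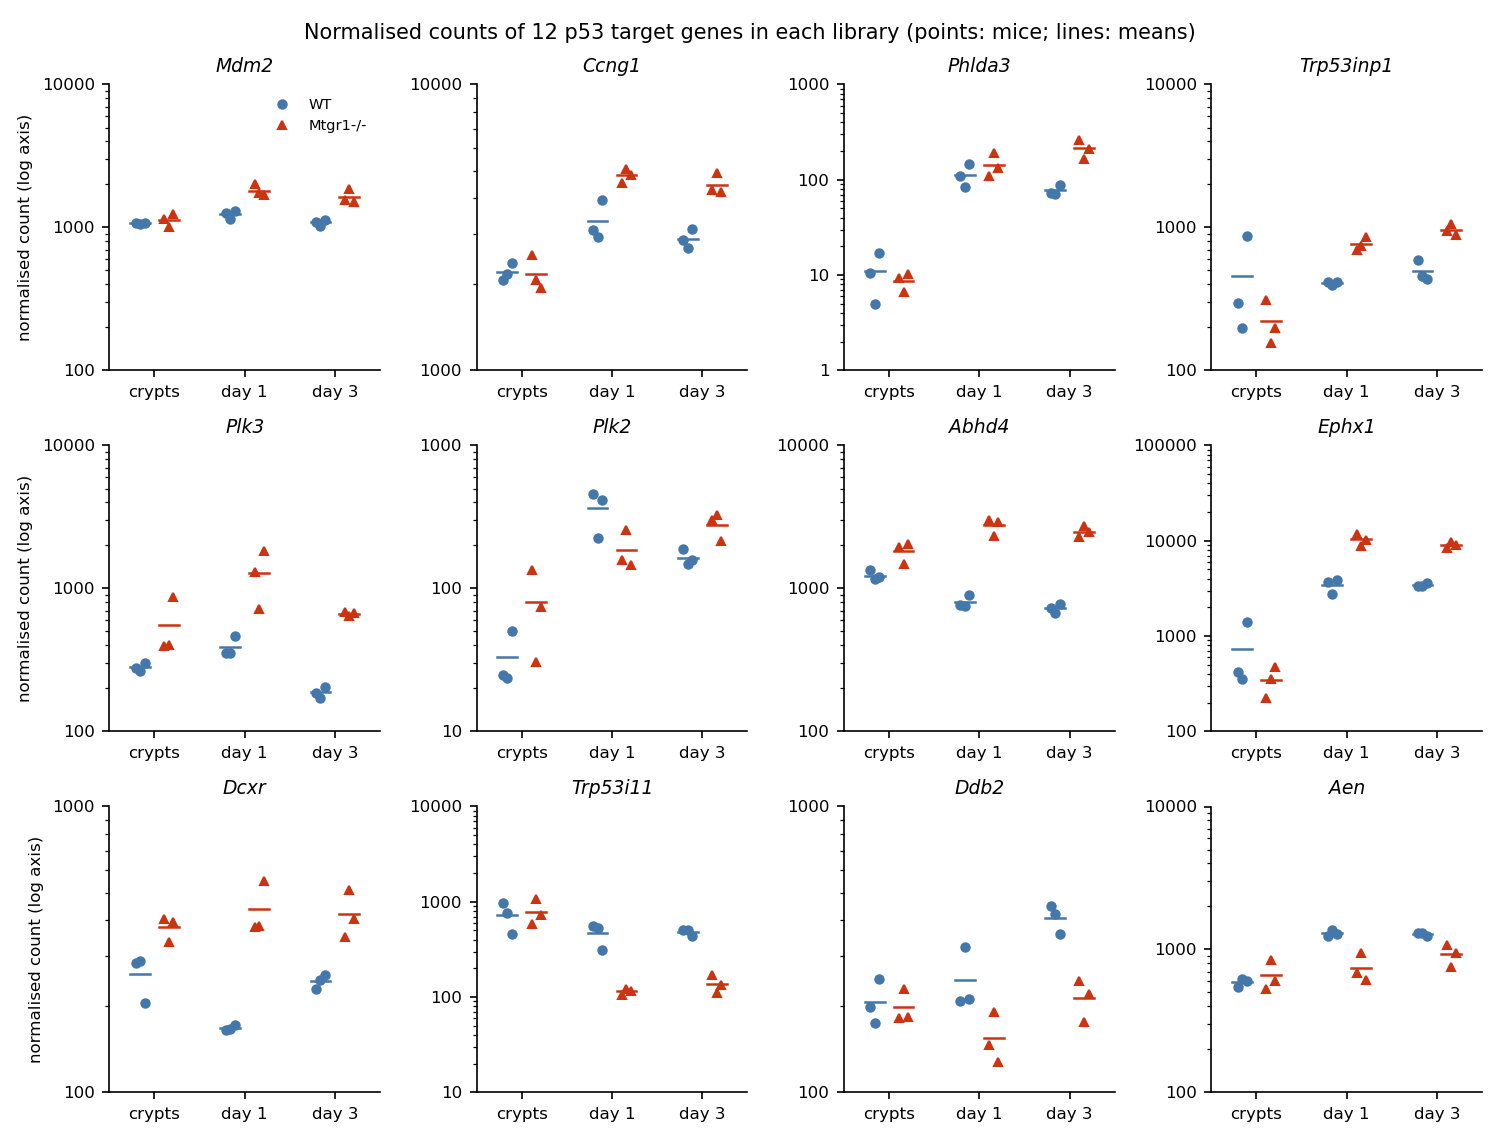
Normalised counts (log axis) of 12 members in each of the 18 libraries, with WT as circles, Mtgr1-/- as triangles and the mean of 3 mice as a line. The tables of the 3 time points were normalised separately, so the heights compare genotypes within a time point. The Mtgr1-/- values of Abhd4 on day 1 lie between 2338 and 3023, above the WT range of 756 to 903, and those of Trp53i11 lie between 106 and 121, below 309 to 554.

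Of 6 genes of growth arrest and kinase signalling, 2 rose and 1 fell on day 1, near the background of 30.0% and 28.9%, and 4 rose on day 3 (background 29.9%). Plk3 (chr4:117128655-117133963), a polo-like kinase of the stress response, had 353, 355 and 465 normalised counts in WT and 1294, 714 and 1826 in Mtgr1-/- on day 1. On day 3 the WT values were 185, 172 and 205 and the Mtgr1-/- values 679, 642 and 669, which lie closer together than on day 1. The log2 fold changes were 1.62 ± 0.31 (adjusted p = 0.00323) and 1.82 ± 0.11 (adjusted p = 1.4e-05), and both held under all 19 alternatives of each day. In crypts Plk3 was at 280, 265 and 303 in WT and 393, 401 and 869 in Mtgr1-/-, without overlap but short of the threshold (0.87 ± 0.31, adjusted p = 0.188). A gene on the other strand, Tctex1d4, overlaps Plk3, and the libraries were stranded. Strand alone does not separate the 6 members that overlap an annotated gene on their own strand, namely Ephx1, Sesn1, Sesn2, Cd82, Rrm2b and Fbxw7.

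Plk2 (chr13:110395046-110400844), a related kinase, was the only member called in opposite directions. On day 1 it was at 460, 227 and 416 normalised counts in WT and 157, 255 and 147 in Mtgr1-/-, so that WT mouse 2 lay below Mtgr1-/- mouse 2. Its day 3 values were 187, 148 and 158 in WT and 299, 324 and 214 in Mtgr1-/-. The log2 fold change was -0.96 ± 0.31 on day 1 (adjusted p = 0.0295) and 0.75 ± 0.18 on day 3 (adjusted p = 0.00873). Tested directly, the change from day 1 to day 3 was 1.70 ± 0.61 with an adjusted p of 0.447 over all genes (unadjusted p = 0.0138), so a reversal was not shown. The day 1 call of Plk2 was lost with the mouse number as a replicate block (adjusted p = 0.0637), with quantile normalisation, without the variance trend, or when WT mouse 1, WT mouse 3, Mtgr1-/- mouse 1 or Mtgr1-/- mouse 3 was left out (highest adjusted p = 0.102).

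Gadd45a (chr6:67035096-67037457), a p53-induced inhibitor of cell cycle progression that binds PCNA, was at 359, 392 and 567 in WT and 751, 574 and 946 in Mtgr1-/- on day 1 (0.78 ± 0.23, adjusted p = 0.0186). The highest WT and lowest Mtgr1-/- values nearly met, at 567 and 574. Its call was lost when WT mouse 1 or 2 or Mtgr1-/- mouse 1 or 3 was left out (highest adjusted p over all alternatives 0.0912). The day 3 difference of Gadd45a was 0.55 ± 0.18 (adjusted p = 0.0300), and it was not called under total scaling (0.35, adjusted p = 0.140). Btg2, an anti-proliferative co-regulator, rose on day 3 (0.45 ± 0.13, adjusted p = 0.0153), a call lost under total scaling (0.25, adjusted p = 0.193), and on day 1 its difference of 0.47 ± 0.19 missed the threshold (adjusted p = 0.0639). Fbxw7, a substrate receptor of a ubiquitin ligase, and Psrc1, a spindle protein, were not called at any time point, although Fbxw7 was called lower on day 1 under total scaling (-0.47, adjusted p = 0.0198).

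Of 5 genes of cell death, 1 rose and 1 fell on day 1 (background 30.0% and 28.9%), and 2 rose and 1 fell on day 3 (background 29.9% and 29.1%), near the background in both cases. Phlda3 (chr1:135766119-135769136), a repressor of AKT, was at 109, 83.3 and 146 normalised counts in WT and 108, 192 and 132 in Mtgr1-/- on day 1, with overlapping groups (0.35 ± 0.28, adjusted p = 0.307). On day 3 it was at 72.6, 71.3 and 88.1 in WT and 263, 167 and 211 in Mtgr1-/- (1.44 ± 0.20, adjusted p = 0.000615), and the groups were apart. The change between the days was 1.09 ± 0.50 with an adjusted p of 0.623, so the 2 days were not shown to differ. Perp, a tetraspan membrane protein of desmosomes and p53-dependent death, rose on both days (0.62 ± 0.14, adjusted p = 0.00617, and 0.76 ± 0.08, adjusted p = 0.000131).

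Aen (chr7:78895854-78911209), a nuclease active in apoptosis, was lower in Mtgr1-/- than in WT enteroids. It was at 1252, 1379 and 1282 normalised counts in WT and 682, 943 and 612 in Mtgr1-/- on day 1, and at 1304, 1300 and 1249 against 1075, 760 and 951 on day 3. No Mtgr1-/- library reached a WT library on either day (-0.83 ± 0.16, adjusted p = 0.00307, and -0.48 ± 0.13, adjusted p = 0.0116). Ei24, a protein of the endoplasmic reticulum, differed by 0.09 and 0.16 and was not called, although its groups did not overlap at any time point. Under total scaling its difference was -0.23 on day 1, called lower. Eda2r, a receptor of the TNF family, was not called on day 1 (0.11 ± 0.35) or day 3 (0.49 ± 0.28).

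Of 5 genes of DNA repair and nucleotide supply, 0 rose and 1 fell on day 1 (background 30.0% and 28.9%), and 1 rose and 1 fell on day 3 (background 29.9% and 29.1%). Ddb2 (chr2:91211572-91236982), which recognises ultraviolet lesions for excision repair, was at 209, 323 and 213 normalised counts in WT and 147, 191 and 128 in Mtgr1-/- on day 1. By day 3 the values were 448, 420 and 357 in WT and 245, 177 and 220 in Mtgr1-/-. All Mtgr1-/- libraries lay below all WT libraries (-0.66 ± 0.23, adjusted p = 0.0355, and -0.94 ± 0.15, adjusted p = 0.00141). On day 1 the call was lost when WT mouse 2 or Mtgr1-/- mouse 1 or 3 was left out and with quantile normalisation (adjusted p up to 0.115). Acp2 overlaps Ddb2 on the other strand. Rrm2b, a subunit of ribonucleotide reductase, rose on day 3 just past the threshold (0.44 ± 0.16, adjusted p = 0.0469), a call lost under total scaling (adjusted p = 0.270). Xpc and Ercc5, both of nucleotide excision repair, and Polk, a DNA polymerase that bypasses lesions, were called at no time point, with log2 fold changes from -0.22 to 0.14 in culture.

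Of the members of stress handling, redox and metabolism, 5 of 7 tested rose on day 1 (background 30.0%), and 5 of 8 rose and 1 fell on day 3 (background 29.9% and 29.1%). Abhd4 (chr14:54254188-54270637), a lipase of N-acyl phospholipids, was at 772, 756 and 903 normalised counts in WT and 3023, 2338 and 2921 in Mtgr1-/- on day 1, and at 730, 672 and 781 against 2302, 2730 and 2475 on day 3. The difference was 3.39-fold on day 1 and 3.43-fold on day 3, with log2 fold changes of 1.76 ± 0.12 (adjusted p = 8.66e-05) and 1.78 ± 0.10 (adjusted p = 1.04e-05). In crypts Abhd4 was at 1339, 1159 and 1195 in WT and 1935, 1483 and 2036 in Mtgr1-/-, without overlap and with the lowest adjusted p of any member there (0.55 ± 0.14, adjusted p = 0.0782).

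Ephx1 (chr1:180976210-181020904), the microsomal epoxide hydrolase of xenobiotic metabolism, was at 3722, 2770 and 3870 normalised counts in WT and 11900, 8819 and 10314 in Mtgr1-/- on day 1. On day 3 it was at 3328, 3338 and 3594 in WT and 8480, 9806 and 8977 in Mtgr1-/-. The groups were far apart on both days (1.59 ± 0.16, adjusted p = 0.000258, and 1.41 ± 0.08, adjusted p = 1.33e-05). Dcxr (chr11:120725399-120727281), a carbonyl reductase, was at 166, 167 and 172 in WT and 380, 382 and 549 in Mtgr1-/- on day 1 (1.35 ± 0.17, adjusted p = 0.000561). Its day 3 values were 230, 248 and 257 in WT and 349, 509 and 404 in Mtgr1-/- (0.76 ± 0.15, adjusted p = 0.00330). Its calls held under every alternative run on those days.

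Both sestrins of the list, which restrain mTORC1 and act in the antioxidant response, were higher. Sesn1 (chr10:41809935-41908424) was at 985, 985 and 873 normalised counts in WT and 1871, 1623 and 2007 in Mtgr1-/- on day 1 (0.95 ± 0.11, adjusted p = 0.000382), and differed by 0.58 ± 0.13 on day 3 (adjusted p = 0.00646). Sesn2 (chr4:132492032-132510501) was at 396, 407 and 500.5 in WT and 694, 661 and 885 in Mtgr1-/- on day 3 (0.78 ± 0.14, adjusted p = 0.00241), and differed by 0.62 ± 0.14 on day 1 (adjusted p = 0.00769). Sesn2 is also a target of ATF4, the transcription factor of the integrated stress response. In a list of 19 genes made of Atf4 itself and targets of ATF4, 3 rose and 6 fell on day 1 (background 30.0% and 28.9%). On day 3, 5 rose and 5 fell (background 29.9% and 29.1%). Ak1, an adenylate kinase, was called lower on day 3 at low counts, with 17.9, 18.7 and 18.4 in WT and 13.7, 3.98 and 6.74 in Mtgr1-/- (-1.23 ± 0.45, adjusted p = 0.0451), and that call was lost under 11 of 19 alternatives (adjusted p up to 0.287). Tigar, a regulator of glycolysis, and Gdf15, a secreted stress cytokine, were not called in culture. Pltp, a phospholipid transfer protein, was too low to test in culture.

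Among the remaining members, Cd82, a tetraspanin that suppresses metastasis, was at 2295, 1983 and 2141 normalised counts in WT and 4399, 3750 and 4716 in Mtgr1-/- on day 1 (1.00 ± 0.11, adjusted p = 0.000334). On day 3 its difference was 0.67 ± 0.12 (adjusted p = 0.00166). Sulf2 (chr2:166073089-166155663), a sulfatase that edits heparan sulfate outside the cell, was at 1332, 1155 and 1308 in WT and 2397, 3188 and 2475 in Mtgr1-/- on day 3 (1.08 ± 0.12, adjusted p = 0.000232). On day 1 its difference was 0.77 ± 0.19 (adjusted p = 0.00957). Def6, a guanine nucleotide exchange factor of lymphocytes, was not called on day 1 and was too low to test on day 3.

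Trp53i11 (chr2:93187548-93201759), a membrane protein named for its induction by p53, had the lowest log2 fold change of the members in culture. It was at 554, 535 and 309 normalised counts in WT and 106, 121 and 117 in Mtgr1-/- on day 1, and at 510, 504 and 434 against 172, 111 and 132 on day 3. The differences were -1.97 ± 0.23 (3.91-fold lower, adjusted p = 0.000445) and -1.81 ± 0.17 (3.51-fold lower, adjusted p = 0.000104). In crypts the groups overlapped, with 968, 770 and 459 in WT and 580, 1060 and 728 in Mtgr1-/- (0.13 ± 0.32). Both calls held under all 19 alternatives of each day.

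No member was called in crypts by limma with all libraries weighted equally. There 7 of 31 had an unadjusted p below 0.05, beside 2395 of all 12980 genes. The groups of 9 did not overlap (background 25.5%). The edgeR quasi-likelihood test on recovered reads called 0 members, DESeq2 called 1 lower, limma with array weights called 5 higher, and limma without Mtgr1-/- mouse 2 called 1 higher. Over all 12980 genes, edgeR called 209, DESeq2 1200 and array weights 2100, of which 982 were higher. Without Mtgr1-/- mouse 2, 608 of 13024 genes were called, 229 of them higher. Several of the values there were set apart by 1 library. In the WT crypts of mouse 3, which had the high non-epithelial markers, Ephx1 was at 1394 against 421 and 356 in the other WT crypts and 222 to 475 in Mtgr1-/- crypts. Trp53inp1 was at 876 there against 297 and 199. Def6 was at 206 against 37.4 and 42.6, Eda2r at 36.8 against 11.5 and 12.9, and Pltp at 142 against 12.5 and 8.91. All 5 genes were highest in that library of all crypts. Whether they came from non-epithelial cells was not tested. Without that library, 0 members were called higher and 0 lower.

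**Figure D3:**
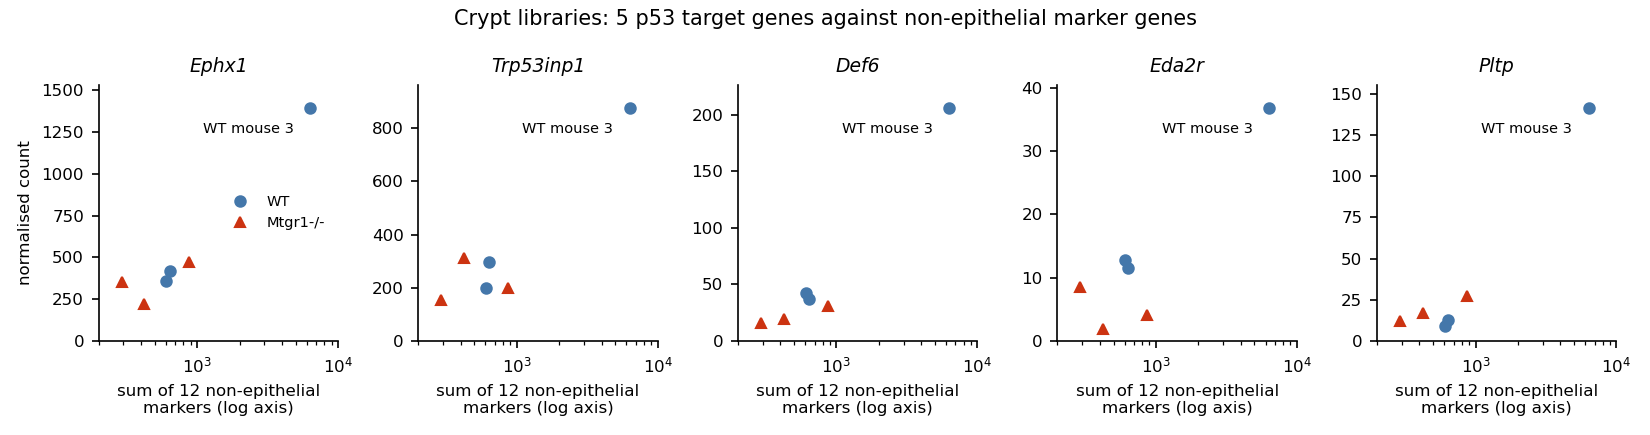
Normalised counts (y axis, from 0) of 5 members in the 6 crypt libraries against the sum of 12 non-epithelial markers (x axis, log). The WT library of mouse 3 has a marker sum of 6353 and the highest value of every gene shown, with 1394 for Ephx1.

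Whether the genotype difference changed between time points was tested in 1 model of the 18 libraries, in which libraries of the same mouse were allowed to correlate. Between crypts and day 1 the difference became more positive for 13 of 33 members (background 19.4%) and more negative for 5 (background 20.0%, or 39.4% in either direction). Between crypts and day 3 it became more positive for 12 (background 16.3%) and more negative for 2 (background 14.4%, or 30.6% in either direction). Between day 1 and day 3 it changed for 0 members and for 4 of all 12937 genes (0.0309%), 0.0232% more positive and 0.00773% more negative. An unadjusted p below 0.05 was reached by 4 of the 33 members and by 1007 of all genes. Without Mtgr1-/- mouse 2, the test between these days called 890 genes, 3.61% more positive and 3.27% more negative. It then called 2 members in each direction. Under total scaling, the counts between crypts and day 1 were 5 more positive and 9 more negative, beside 9.42% and 34.4% of all genes. Without the crypt library of WT mouse 3, left out after the data were seen, they were 11 and 5, beside 19.5% and 19.5% of all genes. The crypt libraries enter both of the first 2 comparisons, which are therefore not independent of each other.

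Among the called members, Ephx1 had the largest positive change to day 1, of 2.42 ± 0.52 on the log2 scale to day 1 (adjusted p = 0.00336), and changed by 2.24 ± 0.52 to day 3 (adjusted p = 0.00731). Without the crypt library of WT mouse 3 the changes were 1.80 (adjusted p = 0.00163) and 1.62 (adjusted p = 0.00304). Trp53inp1 changed by 1.70 ± 0.53 to day 1 (adjusted p = 0.0187) and by 1.77 ± 0.53 to day 3 (adjusted p = 0.0214), or by 1.09 and 1.15 without that library. Without Mtgr1-/- mouse 2 or 3 neither change was called (adjusted p from 0.0556 to 0.0936), nor was the change to day 3 without WT mouse 3 (1.07, adjusted p = 0.0540). For Eda2r the change to day 1 was 1.96 ± 0.67 (adjusted p = 0.0309), and it was no longer called without that library (1.46, adjusted p = 0.0697) or under 8 other alternatives. Its change to day 3 was 2.34 ± 0.67 (adjusted p = 0.0186), lost when WT mouse 2 or 3 or Mtgr1-/- mouse 1 or 3 was left out (adjusted p up to 0.0709). The Eda2r values in crypts were 11.5, 12.9 and 36.8 in WT and 1.88, 8.56 and 4.07 in Mtgr1-/-, while on day 1 they were 70.4, 46.9 and 83.0 against 45.5, 105 and 71.7. The spread of these low values was wide in both groups.

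Negative changes were led by Trp53i11 (-2.10 ± 0.39 to day 1, adjusted p = 0.00174, and -1.94 ± 0.39 to day 3, adjusted p = 0.00347) and Plk2 (-2.05 ± 0.61 to day 1, adjusted p = 0.0164). Plk2 was low in crypts, at 24.9, 23.8 and 50.6 normalised counts in WT and 136, 30.4 and 74.2 in Mtgr1-/-. Its change was no longer called without WT mouse 1, Mtgr1-/- mouse 1 or Mtgr1-/- mouse 3. Gdf15 changed by -1.31 ± 0.47 to day 1 (adjusted p = 0.0383), from 4.79, 3.96 and 11.5 in WT and 9.42, 18.1 and 11.2 in Mtgr1-/- crypts to 37.5, 58.3 and 57.0 and 32.7, 38.9 and 43.0 on day 1. That call was lost under 8 of 14 alternatives, with an adjusted p of up to 0.205. The changes of Phlda3 (1.60 ± 0.50, adjusted p = 0.0255) and Sulf2 (1.37 ± 0.29, adjusted p = 0.00427) to day 3 were positive, and that of Phlda3 was not called without the crypt library of WT mouse 3 (1.23, adjusted p = 0.0515) or under 6 other alternatives.

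The RNA of p53 itself was lower in Mtgr1-/- than in WT enteroids on both culture days. Trp53 was at 2762, 2916 and 2570 normalised counts in WT and 1394, 1698 and 1299 in Mtgr1-/- on day 1 (-0.92 ± 0.12, adjusted p = 0.000583), and at 3477, 4026 and 3757 against 2573, 1890 and 2607 on day 3 (-0.68 ± 0.13, adjusted p = 0.00288). In crypts it was at 1646, 1564 and 1403 in WT and 1374, 1739 and 1362 in Mtgr1-/-, with overlap (-0.05 ± 0.12). The genotype difference of Trp53 became more negative from crypts to day 1 (change -0.87 ± 0.19, adjusted p = 0.00352). Of the 20 genes tested in a list of p53 and its regulators, 2 rose and 10 fell on day 1 (background 30.0% and 28.9%), and 1 rose and 10 fell on day 3 (background 29.9% and 29.1%). Their median log2 fold change was -0.34 on both days.

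The DNA damage kinases were among those that fell. Chek1, a checkpoint kinase of the S and G2 phases, was at 481, 531 and 536 in WT and 243, 241 and 153 in Mtgr1-/- on day 1 (-1.31 ± 0.19, adjusted p = 0.00102), and differed by -1.30 ± 0.14 on day 3 (adjusted p = 0.000220). Atr, which activates it, differed by -1.15 ± 0.19 on day 1 (adjusted p = 0.00176) and -1.02 ± 0.12 on day 3 (adjusted p = 0.000248). Chek2 fell by 0.84 and 0.66 on the log2 scale (-0.84 ± 0.16, adjusted p = 0.00299, and -0.66 ± 0.13, adjusted p = 0.00317). Atm fell on day 1 (-0.62 ± 0.11, adjusted p = 0.00243), and on day 3 its difference of -0.52 ± 0.21 missed the threshold (adjusted p = 0.0616).

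The deubiquitinase Usp7, which acts on MDM2 and p53, the deacetylase Sirt1, the p53-binding protein Trp53bp1 and the ribosomal proteins Rpl5 and Rpl11, which bind MDM2 when ribosome assembly fails, fell on both days, with log2 fold changes from -0.63 to -0.41 on day 1 and from -0.46 to -0.30 on day 3. The call of Sirt1 on day 1 was lost without WT mouse 1 or 2 (adjusted p up to 0.0660), and that of Trp53bp1 on day 3 without WT mouse 1 or Mtgr1-/- mouse 3 (adjusted p up to 0.0728). Hipk2, a kinase that phosphorylates p53, was the only regulator that rose on both days (0.57 ± 0.13, adjusted p = 0.00781, and 0.66 ± 0.19, adjusted p = 0.0183). Under total scaling Hipk2 was called on neither day (adjusted p = 0.0906 and 0.0853). Daxx, a partner of HIPK2, rose on day 1 (0.43 ± 0.14, adjusted p = 0.0313), a call lost under 7 of 19 alternatives. Mdm4, the partner of MDM2, differed by -0.28 ± 0.18 and -0.37 ± 0.16 and was not called. It was called lower on both days with the replicate block (adjusted p = 0.0425 and 0.00946) and under total scaling (adjusted p = 0.0418 and 0.0245). On day 3 Mdm4 was also called lower with quantile normalisation, with array weights and without Mtgr1-/- mouse 1 (adjusted p from 0.0022 to 0.0275). The ubiquitin ligase Rchy1 fell in crypts (-0.44 ± 0.09, adjusted p = 0.0435), a call lost under 11 of 19 alternatives (adjusted p up to 0.211), and on day 3 (-0.30 ± 0.11, adjusted p = 0.0411), a call lost under 6.

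Targets of the families left out of the member list were compared side by side. Of 7, 5 rose on day 1 (background 30.0%) and 5 on day 3 (background 29.9%), and limma called 0 lower on either day, where the 2 not called had an unadjusted p above 0.05. Under total scaling the day 1 calls of Bbc3, Pmaip1 and Tnfrsf10b and the day 3 call of Bid were lost. Cdkn1a, which encodes the CDK inhibitor p21, was at 2396, 1960 and 2232 in WT and 5266, 3755 and 5851 in Mtgr1-/- on day 1 (1.15 ± 0.17, adjusted p = 0.000961) and differed by 1.15 ± 0.11 on day 3 (adjusted p = 0.000103). Fas, a death receptor, was at 163, 146 and 134 in WT and 554, 357 and 448 in Mtgr1-/- on day 1 (1.59 ± 0.18, adjusted p = 0.000406) and differed by 1.32 ± 0.21 on day 3 (adjusted p = 0.00126). Bax, the apoptotic pore protein, was not called on either day (-0.11 ± 0.10 and 0.10 ± 0.08). Its day 1 difference was called lower under total scaling (-0.43, adjusted p = 0.0255), and its day 3 difference changed sign there (-0.11).

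**Figure D4:**
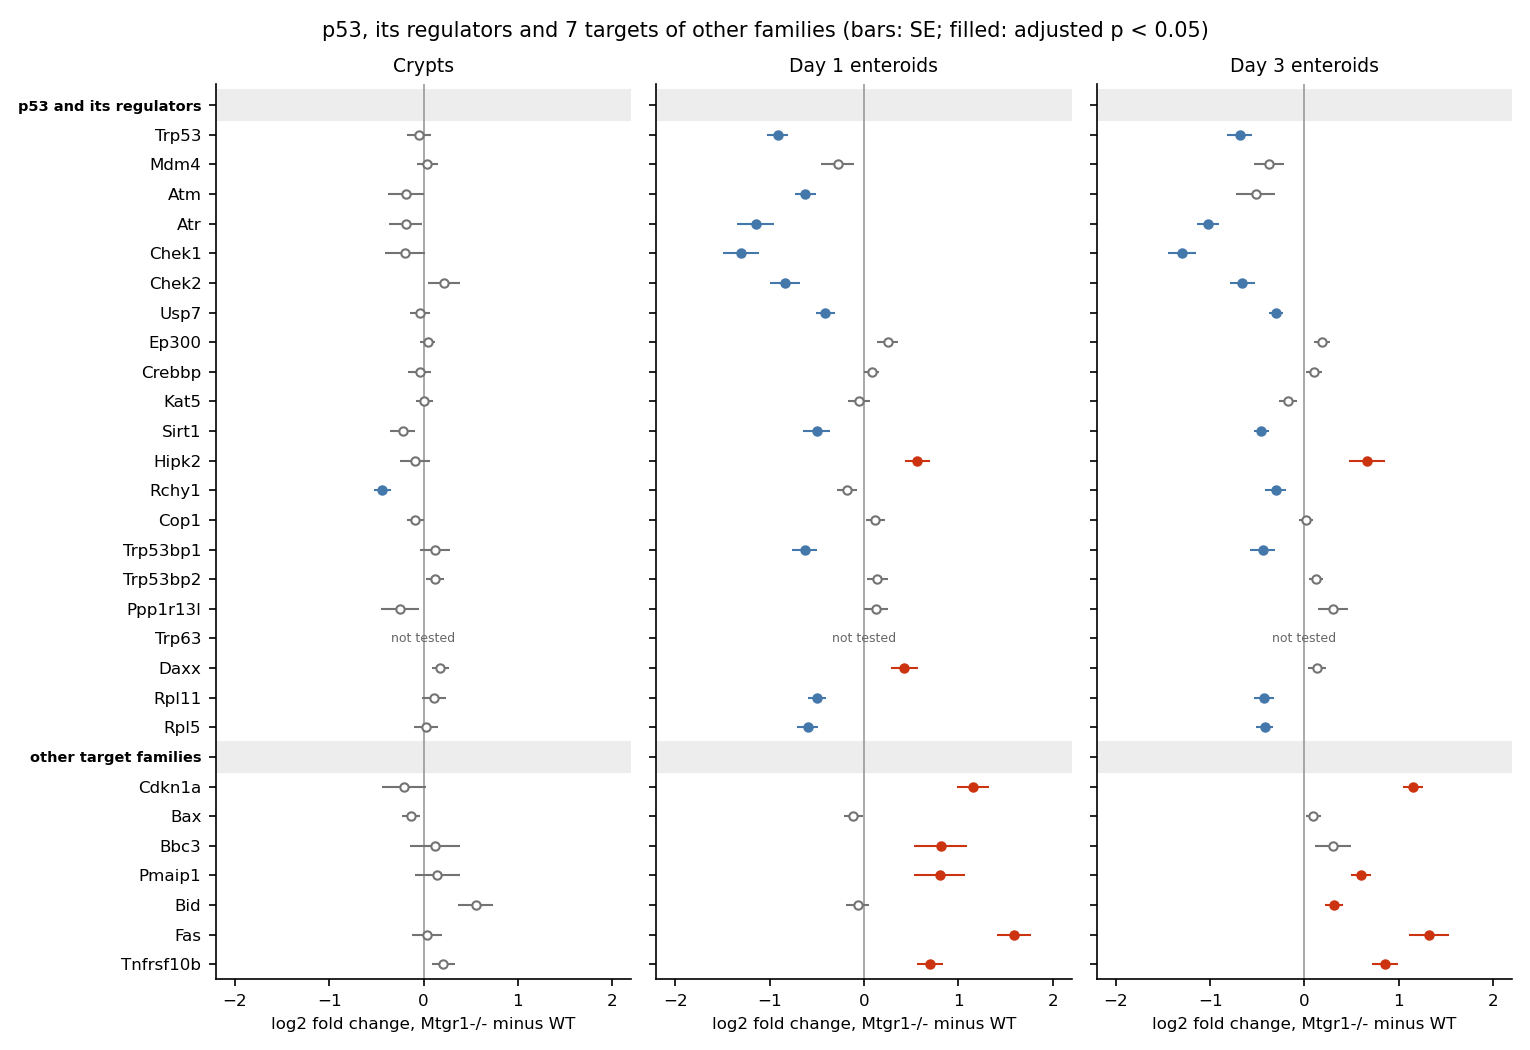
Log2 fold change (Mtgr1-/- minus WT, x axis) of p53, 20 of its regulators and 7 targets of the families left out of the member list, in crypts, day 1 and day 3. Points are limma estimates with 1 SE, and filled points were called. Trp53 lies at -0.92 on day 1 and -0.68 on day 3, whereas Cdkn1a lies at 1.15 on both days.

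Levels were also followed from the crypt into culture as CPM, the share of a library's counted reads scaled to a common total. The tables were normalised separately, so these shares are set side by side without a test, and a share also moves when other genes change. A member was counted where its 3 libraries at one time point did not overlap the 3 at the next and the means differed at least 2-fold. From WT crypts to WT day 1 enteroids, 7 of 33 members went up (background 10.3%) and 3 went down (background 9.19%). In Mtgr1-/- mice, 5 went up (background 5.59%) and 1 went down (background 8.08%). From day 1 to day 3, 1 went up and 2 went down in WT (background 2.11% and 2.75%), and in Mtgr1-/- 0 did either (background 4.65% and 0.948%).

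Phlda3, Gdf15, Eda2r and Ephx1 went up in both genotypes. Phlda3 went from a mean of 0.428 to 4.72 CPM in WT and from 0.349 to 4.94 in Mtgr1-/- mice, and Gdf15 from 0.264 to 2.15 and from 0.522 to 1.29. These crypt levels are few reads per library. Ephx1 went from 28.3 CPM (14.0 to 54.0) to 145 (121 to 164) in WT and from 13.9 (9.25 to 17.6) to 346 (325 to 382) in Mtgr1-/- mice, and stayed near 143 and 329 on day 3. Plk2 and Aen were counted in WT mice and not in Mtgr1-/- mice. Plk2 went from a crypt range of 0.934 to 1.96 CPM to a mean of 15.3 in WT and then to 6.86 on day 3, while in Mtgr1-/- mice it was at 3.22, 6.39 and 10.1. Aen went from 23.2 to 54.9 CPM in WT and was at 26.7 and 25.4 in Mtgr1-/- mice. Trp53inp1 was counted in Mtgr1-/- mice (8.94 to 25.8) and was at 17.9 and 17.2 in WT, where mouse 3 alone set the upper end of the crypt range (34.0). Trp53i11 went down in Mtgr1-/- mice, from 31.9 to 3.88 CPM, and was at 28.9 and 19.6 in WT. Sesn1 went down in WT (82.1 to 39.8) and was at 93.2 and 61.4 in Mtgr1-/- mice. Psrc1 went up and Def6 and Pltp went down in WT, the latter 2 from crypt means that rested on mouse 3.

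**Figure D5:**
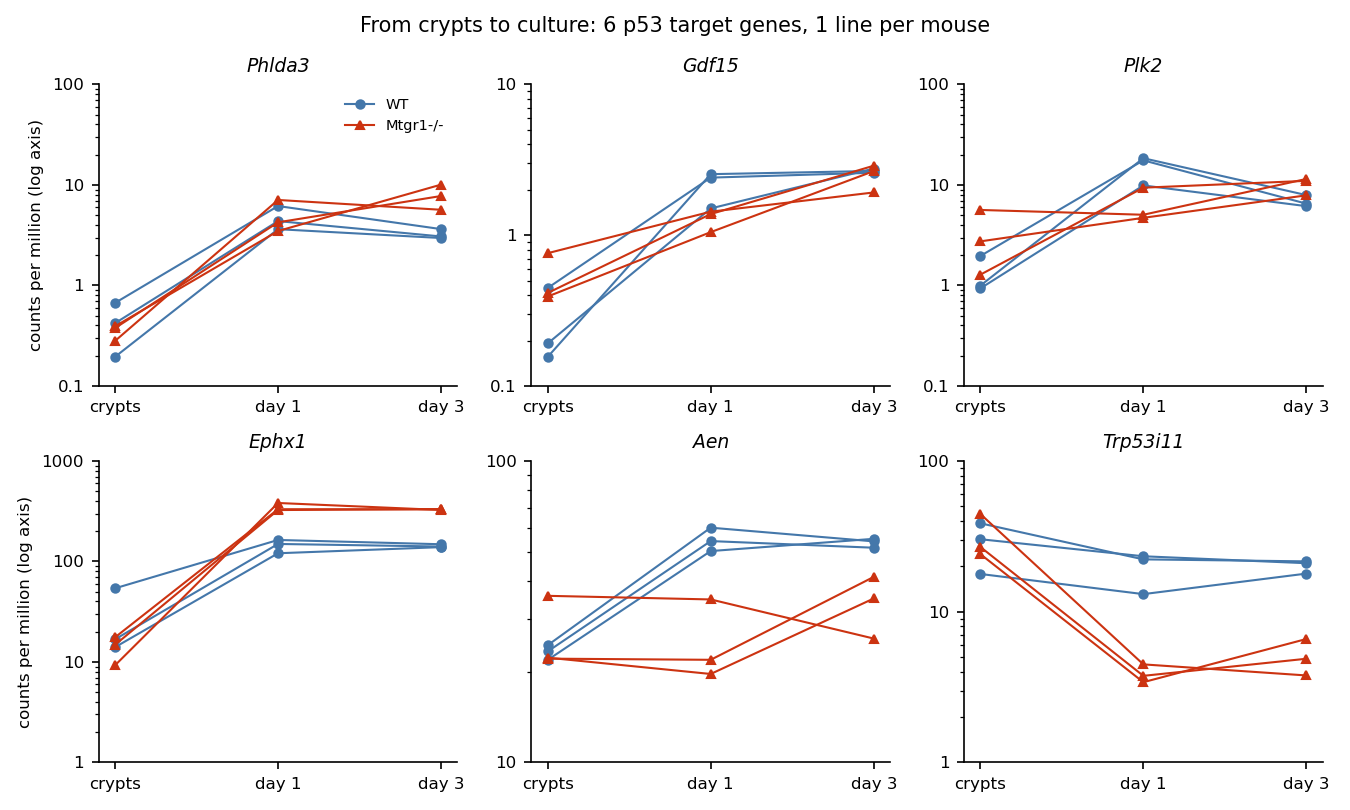
CPM (log axis) of 6 members in crypts, day 1 and day 3, with 1 line for each mouse, WT as circles and Mtgr1-/- as triangles. The lines of Ephx1 part after the crypts, reaching 121 to 164 CPM in WT and 325 to 382 in Mtgr1-/- on day 1, and those of Trp53i11 part downwards to 3.41 to 4.47 CPM in Mtgr1-/-.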

How the data were processed

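RNA was sequenced from 18 libraries, 3 mice per genotype at 3 time points, with stranded mRNA libraries. The authors trimmed reads with fastp 0.20.0, estimated gene counts with Salmon 1.3.0 and compared genotypes with DESeq2 1.26.0 in 3 tables, 1 per time point. The signal used here is the deposited normalised count, that is, the gene count of the authors divided by 1 factor per library. The deposited tables also hold the authors' mean signal, log2 fold changes, a test score and p-values, which were not used. Dividing by the smallest step gave whole reads for 100% of values in all libraries (tolerance 1e-06), although in 2 of the 18 libraries the step was too close to 1 to check this. The other 16 had a median of 26258539 reads. The count test (edgeR) on these reads called 209, 7383 and 7242 genes in crypts, on day 1 and on day 3.

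The 35 members and all other lists were chosen with earlier results of these data known. Groups came from the labels, whose mice are separate animals. Genes with a mean of at least 10 normalised counts were tested on log2(value + 1) with limma 3.58.1 (R 4.3.3, moderated with a variance trend, Benjamini-Hochberg adjustment). For interactions, the mean was taken over all 18 libraries, and libraries of a mouse shared an estimated correlation (0.00576). Alternatives included edgeR 4.0.16 and DESeq2 1.42.0 on recovered reads, other pseudocounts (0.1 and 8), scalings, filters, array weights, an Xist term and each mouse left out. The limma, edgeR, DESeq2 and interaction fits were tested on simulated data. All members are accounted for, with regulators and other families from fixed lists. Only some genes were followed through all alternatives, and part of them were picked by their results here. Those picked were the called members with the largest rises, falls or changes between time points, and the called regulators. Mdm2, Ccng1, Phlda3, Trp53, Mdm4, Cbfa2t2, Cdkn1a, Fas and Bax were added by name. Same-numbered mice deviated together on day 1 (correlations 0.116, 0.231 and 0.216), not on day 3 (-0.00666, -0.00226 and -0.0156), and in crypts gave 0.0764, 0.274 and 0.346, so the numbers met the condition for a pairing on day 1. The fit reported has no block. Members whose call within a time point changed in the blocked fit are named, and for changes between time points the blocked counts are given.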

Additional observations from a re-analysis of the deposited data

Results flagged for a closer look

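The results below are listed because the genotype difference of a member changed between the crypts and a culture day, as tested by limma with an interaction term (adjusted p below 0.05 over all genes). Values are changes of the log2 fold change. Those of Phlda3 and Gdf15 rest on crypt levels too low for a test within the crypts.

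From crypts to day 1 the difference became more positive for Ephx1 (2.42), Eda2r (1.96), Trp53inp1 (1.70), Abhd4 (1.21), Sulf2 (1.06), Gadd45a (1.00), Cd82 (0.95), Sesn1 (0.80), Dcxr (0.79), Ccng1 (0.57), Mdm2 (0.48), Perp (0.42) and Ei24 (0.25). It became more negative for Trp53i11 (-2.10), Plk2 (-2.05), Gdf15 (-1.31), Aen (-0.96) and Fbxw7 (-0.42).

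From crypts to day 3 it became more positive for Eda2r (2.34), Ephx1 (2.24), Trp53inp1 (1.77), Phlda3 (1.60), Sulf2 (1.37), Abhd4 (1.23), Ccng1 (0.65), Cd82 (0.62), Zmat3 (0.62), Perp (0.56), Mdm2 (0.52) and Ei24 (0.31). It became more negative for Trp53i11 (-1.94) and Ddb2 (-0.88).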

How the results depend on the processing

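Over all genes, 614 were called in crypts, against 209 by edgeR, 1200 by DESeq2, 2100 with array weights and 176 to 608 when 1 mouse was left out (lowest without WT mouse 1). In crypts, array weights called 5 members higher and DESeq2 called 1 lower, and leaving out 1 mouse gave 0 to 1 higher (1 without Mtgr1-/- mouse 2) and 0 to 0 lower. On day 1, total scaling called 9 higher and quantile normalisation 3 lower, and leaving out 1 mouse gave 12 to 14 higher and 3 to 6 lower. On day 3 it gave 15 to 17 higher and 3 to 5 lower, the lowest without WT mouse 3. Over all genes, leaving out 1 mouse called 6136 to 7874 on day 1, against 7413 with all mice. On day 3 it called 6096 to 7695, against 7545. For the change from crypts to day 1, total scaling gave 5 more positive and 9 more negative, and leaving out 1 mouse gave 5 to 13 (lowest without WT mouse 2) and 2 to 5 (lowest without Mtgr1-/- mouse 3). Of all genes, 12.6% became more positive without WT mouse 2, against 19.4% with all mice. Without Mtgr1-/- mouse 3, 15.2% became more negative, against 20.0%. For the change to day 3, total scaling gave 6 more positive and 4 more negative, beside 10.5% and 22% of all genes. Quantile normalisation gave 4 more negative (20.9% of all genes). Leaving out 1 mouse gave 7 to 11 more positive (lowest without WT mouse 1) and 1 to 3 more negative. Without WT mouse 1, 8.55% of all genes became more positive and 5.39% more negative, against 16.3% and 14.4% with all mice. Between the culture days, leaving out 1 mouse gave 0 to 2 in each direction (2 without Mtgr1-/- mouse 2). Without that mouse 890 of all genes were called, 3.61% more positive and 3.27% more negative, against 4 genes with all mice. With the mouse number as a replicate block, 14 members rose and 4 fell on day 1 (Plk2 lost), and 17 rose and 4 fell on day 3 (Rrm2b and Ak1 lost). The blocked change to day 1 was more positive for 13 members and more negative for 4, beside 20.5% and 21% of all genes. To day 3 the counts were 14 and 3, beside 17.8% and 15.8%. The block also lost the limma calls of the Gdf15 change to day 1 (adjusted p = 0.0561) and of Rchy1 in crypts (adjusted p = 0.0695). An Xist term in limma lost the calls of Zmat3 on day 1 and Rrm2b on day 3. It also lost those of Rchy1 in crypts and on day 3 (adjusted p = 0.0599 and 0.0542). The changes of Eda2r and Gdf15 to day 1 were likewise not called with it (adjusted p = 0.0512 and 0.0604). The causes were not tested.

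With total scaling the sign changed for 1 of 31 members in crypts, 5 of 32 on day 1 and 5 of 32 on day 3, and with quantile normalisation for 4, 3 and 2. Zmat3 on day 1 was called before the change (-0.04 after it), and Ei24 on day 1 after it (-0.23). For the genes followed through all alternatives, differences that were not called changed sign. In crypts these were Mdm2 (-0.0026 to 0.15 when 1 mouse was left out), Ccng1 (-0.14 to 0.056 when 1 mouse was left out, 0.14 with array weights, 0.0069 with total scaling), Trp53 (-0.17 to 0.010), Mdm4 (-0.055 to 0.14, -0.070 with edgeR, -0.068 with DESeq2), Cbfa2t2 (-0.21 to 0.082, 0.028 with array weights) and Fas (-0.10 to 0.17). On day 3 they were Cbfa2t2 (-0.024 to 0.15, -0.11 with array weights, -0.030 with edgeR, -0.023 with DESeq2, -0.15 with total scaling) and Bax (-0.11 with total scaling).

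Depth limits the low members. Gdf15, Phlda3, Trp73 and Ak1 were too low to test in crypts, Pltp, Trp73 and Ak1 on day 1, and Pltp, Trp73 and Def6 on day 3.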
